A study of Gallus gallus with 50 samples.

Results

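The 2 genes described here were chosen as rows of the authors' filtered count table that fell together from HH10 to HH16 in both sorted populations. They are 2 of the 24356 genes in that table. ENSGALG00000009844 lies on the + strand of chromosome 5 at 32480478 to 32485436 of GRCg6a, and its 13 annotated exon entries merge into 6 exons with 2021 bases. The selection rule takes this row as the cardiac actin locus. ENSGALG00000004582 lies on the - strand of chromosome 15 at 6330278 to 6334348, with 7 exons and 777 exon bases. The deposited tables pair neither identifier with a name, and 0 of 24356 identifiers could be matched to a symbol here. The genes are therefore called the chromosome 5 gene and the chromosome 15 gene, and the heart muscle label they were proposed under was not checked against marker genes. The data went against the timing in that label, since neither gene was lost directly after HH10: both were still detected at HH12 and HH14, and only the HH16 libraries were all close to 0.

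Cardiac actin is the actin of the thin filaments in heart muscle, where myosin pulls on it to contract the sarcomere, and it is also made in embryonic skeletal muscle. In the chick embryo the paired heart primordia meet beneath the foregut, below the developing head, and form a tube that soon begins to beat. Neural crest cells leave the dorsal neural tube during the same period and migrate through the head. Actin genes share much of their coding sequence, and reads that map to several places were not counted with the options in the file header, so a member of the actin family can be understated. No role is given here for the chromosome 15 gene.

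Polyadenylated RNA was sequenced from chicken embryos electroporated whole with ptk-TFAP2AE1-GFP, a reporter in which the TFAP2AE1 element drives GFP in neural crest, and grown outside the egg. Every group carried this reporter, and no group was untreated. Cells of about 20 dissected cranial portions were pooled for a sample and sorted into GFP-positive and GFP-negative head cells. This was done at HH6, HH8, HH10, HH12, HH14 and HH16, which are Hamburger-Hamilton stages of chick development. The GFP-positive cells are labelled NC at every stage, and their crest identity at each stage, HH6 included, was not checked against marker genes. The GFP-negative fraction is defined by the lack of GFP alone, so it holds every other head cell type together with any crest cell that did not take up the reporter. The 12 groups held 3 to 5 libraries each after the authors removed 8 of 50 libraries. The 42 kept libraries had 4869937 to 29316689 counted reads. In bulk libraries such as these, fewer cells of a type and less RNA per cell cannot be told apart.

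Levels are given in CPM, read counts relative to library sizes scaled by the trimmed mean of M values (TMM), with the mean ± SD over the libraries of a group. At HH6 the chromosome 5 gene was at 9.18, 4.61 and 11.2 CPM in GFP-positive replicates 1 to 3 and at 20.5, 17.3 and 12.8 CPM in GFP-negative replicates 1 to 3. In the same libraries the chromosome 15 gene was at 0.104, 0.271 and 2.79 CPM in GFP-positive and at 0.482, 1.87 and 9.0 CPM in GFP-negative cells. The fractions did not overlap for the chromosome 5 gene, and they overlapped for the chromosome 15 gene, whose highest library in both fractions was replicate 3.

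At HH8 the fractions stood clearly apart for both genes. The chromosome 5 gene was at 7.57, 13 and 9.5 CPM in GFP-positive replicates 1 to 3 and at 63.3, 167 and 198 CPM in GFP-negative replicates 1 to 3. For the chromosome 15 gene, the level was at 0.546, 3.04 and 0.726 CPM in the GFP-positive libraries and at 20.8, 91.5 and 76.0 CPM in the GFP-negative libraries. GFP-negative replicate 1 was the lowest of its group for both genes.

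At HH10 both genes reached their highest group mean in the GFP-negative cells. The chromosome 5 gene was at 786, 657 and 798 CPM in GFP-negative replicates 2 to 4, with a mean of 747 ± 77.9 (SD, n = 3), and at 131, 39.1 and 46.9 CPM in GFP-positive replicates 1, 2 and 4. Levels of the chromosome 15 gene were at 131, 140 and 159 CPM in the GFP-negative libraries, with a mean of 143 ± 14.0 (SD, n = 3), and at 33.1, 8.91 and 9.51 CPM in the GFP-positive libraries. The fractions did not overlap for either gene, and GFP-positive replicate 1 was the highest of its group for both. Ranked per kilobase of exon, the GFP-negative HH10 level of the chromosome 5 gene was 148th of 15737 tested genes and that of the chromosome 15 gene was 332nd.

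At HH12 the libraries of one group spread over more than an order of magnitude. The chromosome 5 gene was at 2.22, 0.965, 114 and 173 CPM in GFP-positive replicates 1 to 4 and at 110, 27.6, 580 and 124 CPM in GFP-negative replicates 1, 2, 3 and 5. For the chromosome 15 gene, the level was at 0.493, 0, 34.1 and 61.3 CPM in the GFP-positive libraries and at 23.7, 7.99, 246 and 38.8 CPM in the GFP-negative libraries. The fractions overlapped for both genes, and the same libraries were high or low for both.

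The libraries of a group also spread widely at HH14. The chromosome 5 gene was at 16.1, 98.7 and 1.31 CPM in GFP-positive replicates 1 to 3 and at 515, 267 and 32.3 CPM in GFP-negative replicates 1 to 3. Levels of the chromosome 15 gene were at 8.45, 58.7 and 0.123 CPM in the GFP-positive libraries and at 225, 130 and 16.7 CPM in the GFP-negative libraries. Replicate 3 was the lowest library of both fractions for both genes, and the fractions overlapped.

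At HH16 both genes were near 0 in every library. The chromosome 5 gene was at 0.127, 0.812, 0, 0.124 and 0.450 CPM in GFP-positive replicates 1 to 5 and at 0.780, 1.22, 0.302, 0.351 and 0.0550 CPM in GFP-negative replicates 1 to 5. Of the chromosome 15 gene there was 1 read among 94635369 in the 5 GFP-positive libraries, in replicate 2, and 14 reads among 94231543 in the 5 GFP-negative libraries. The GFP-negative libraries stood at 0.180, 0.243, 0.201, 0.0701 and 0.0550 CPM for this gene.

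**Figure D1:**
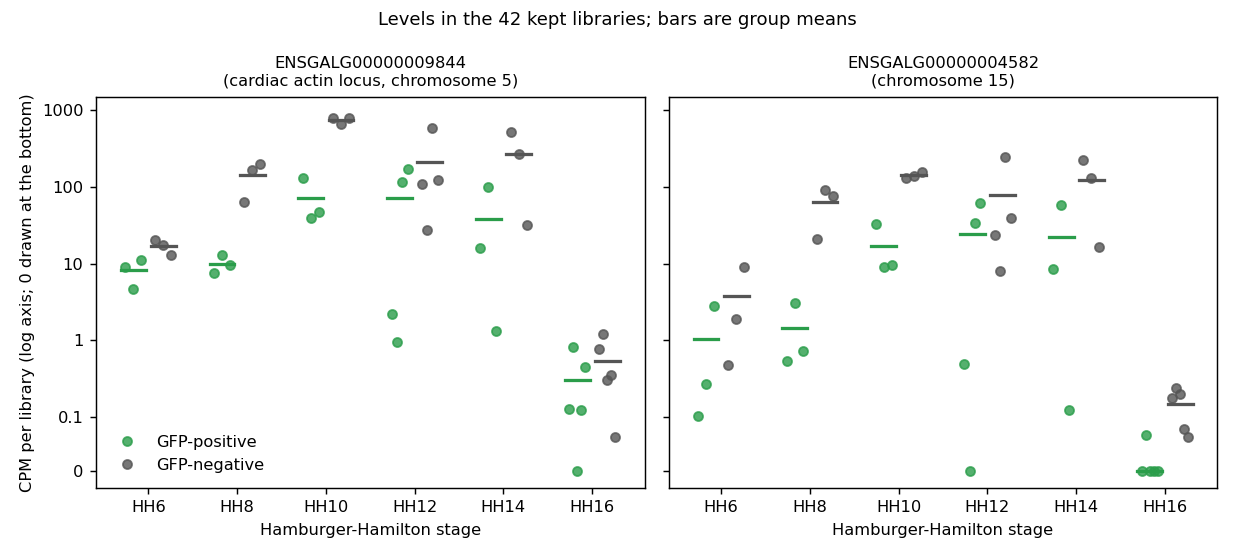
Level of each gene in the 42 kept libraries as TMM-scaled CPM on a log scale, by Hamburger-Hamilton stage and sorted fraction. Each point is a library and each bar a group mean. The GFP-negative HH10 libraries sit between 657 and 798 CPM for the chromosome 5 gene, the HH12 and HH14 libraries spread widely, and no HH16 library exceeds 1.22 CPM.

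By group mean, the chromosome 5 gene was ordered from GFP-negative HH10 (747 CPM) through GFP-negative HH14 (271 ± 241, n = 3), HH12 (210 ± 250, n = 4) and HH8 (143 ± 70.7, n = 3) to the GFP-positive groups of HH12 (72.5 ± 85.3, n = 4), HH10 (72.4 ± 51.1, n = 3) and HH14 (38.7 ± 52.5, n = 3). GFP-negative HH6 (16.9 ± 3.87, n = 3), GFP-positive HH8 (10.0 ± 2.74, n = 3) and GFP-positive HH6 (8.32 ± 3.36, n = 3) came next, and both HH16 groups came last, at 0.541 ± 0.459 in GFP-negative and 0.303 ± 0.330 in GFP-positive cells (n = 5 each). Neighbours in this order overlapped, except GFP-negative HH10 with GFP-negative HH14 and GFP-positive HH6 with GFP-negative HH16. Both of these pairs hold libraries used in the selection, and the share of all tested genes without overlap in them was not computed.

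The chromosome 15 gene had nearly the same order. Its GFP-negative means were 143 CPM at HH10, 124 ± 104 (n = 3) at HH14, 79.2 ± 112 (n = 4) at HH12 and 62.8 ± 37.2 (n = 3) at HH8. Its GFP-positive means were 24 ± 29.6 (n = 4) at HH12, 22.4 ± 31.7 (n = 3) at HH14 and 17.2 ± 13.8 (n = 3) at HH10, followed by GFP-negative HH6 (3.79 ± 4.57, n = 3), GFP-positive HH8 (1.44 ± 1.39, n = 3) and GFP-positive HH6 (1.06 ± 1.51, n = 3). Every pair of neighbours in this order overlapped, so the order of adjacent groups was not resolved by these libraries.

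The first comparison asked whether GFP-positive cells differed from GFP-negative cells at one stage. The selection of the genes did not use this question, although the HH10 and HH16 libraries were also used in the selection. The fitted difference was below 0, that is towards lower levels in GFP-positive cells, for both genes at all 6 stages. The test was the quasi-likelihood F test of edgeR over 15737 genes with Benjamini-Hochberg adjustment and all 12 groups in one fit. With that fit neither gene passed the 0.05 threshold at any stage, and it called 0.432% of all tested genes at HH6, 2.4% at HH8, 1.11% at HH10, 2.1% at HH12, 0.521% at HH14 and 0.445% at HH16. The titles name no pool, but those of 2 libraries can share a stage and a number or suffix, which was taken here as the pool name. A second fit used the pool so inferred as a replicate block, which compares the fractions within a pool.

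At HH8 the fitted log2 difference of GFP-positive from GFP-negative cells was -3.83 ± 1.3 (SE) for the chromosome 5 gene (edgeR adjusted p = 0.136) and -5.42 ± 1.65 for the chromosome 15 gene (edgeR adjusted p = 0.0781). Within pools both passed: the values were -3.72 (edgeR adjusted p = 0.00279) and -5.57 (edgeR adjusted p = 0.000527). The HH8 groups did not overlap for either gene, as for 12.6% of all tested genes in that direction. Of all tested genes, 3.07% were called lower in GFP-positive cells within pools.

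At HH10 the log2 difference was -3.37 ± 1.26 for the chromosome 5 gene (edgeR adjusted p = 0.210) and -3.06 ± 1.44 for the chromosome 15 gene (edgeR adjusted p = 0.355). Within pools the edgeR adjusted p was 0.0537 and 0.0978, above the threshold, and only 2 pools had both fractions. The groups did not overlap for either gene, as for 8.46% of all tested genes in that direction. With sequencing number as a term, both passed at HH10, with values of -4.95 (edgeR adjusted p = 0.00344) and -4.98 (edgeR adjusted p = 0.00436), where 2.3% of all tested genes were called lower. Sequencing number is a name used here for the first number of a library's description in the labels. Nothing in the labels says what that number marks.

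At HH12 the log2 difference was -1.53 ± 1.02 for the chromosome 5 gene (edgeR adjusted p = 0.723) and -1.71 ± 1.18 for the chromosome 15 gene (edgeR adjusted p = 0.755). Within pools it was -3.74 (edgeR adjusted p = 0.00828) and -3.71 (edgeR adjusted p = 0.0183). Both genes passed, among 2.02% of all tested genes called lower. Only 3 pools had both fractions, so GFP-positive replicate 3 and GFP-negative replicate 5 did not inform these values. In 2 of the pools the GFP-positive library held few reads, 18 and 11 of the chromosome 5 gene and 4 and 0 of the chromosome 15 gene. In the other pool the GFP-negative level was 3.36 and 4.01 times the GFP-positive level. The unblocked values of both genes rested on GFP-negative replicate 3, since without it the log2 difference was -0.255 for the chromosome 5 gene and 0.0387 for the chromosome 15 gene.

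At HH14 the log2 difference was -2.82 ± 1.23 for the chromosome 5 gene (edgeR adjusted p = 0.572) and -2.48 ± 1.4 for the chromosome 15 gene (edgeR adjusted p = 0.853). Within pools it was -3.68 (edgeR adjusted p = 0.0151) and -3.87 (edgeR adjusted p = 0.0240), and both genes passed, among 1.16% of all tested genes called lower. Without GFP-positive replicate 2 the unblocked values were -4.96 and -4.87, and without GFP-negative replicate 1 the unblocked value of the chromosome 15 gene was -1.72.

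No difference passed at the first and the last stage, with or without the block. At HH6 the log2 difference was -1.03 ± 1.20 for the chromosome 5 gene and -1.61 ± 1.61 for the chromosome 15 gene (edgeR adjusted p = 1 for both). The value of the chromosome 15 gene was -4.05 without GFP-positive replicate 3 and -0.166 without GFP-negative replicate 3. The HH6 groups did not overlap for the chromosome 5 gene, as for 5.86% of all tested genes in that direction. At HH16, with 30 GFP-positive and 50 GFP-negative reads in all, the chromosome 5 gene had a log2 difference of -0.68 ± 1.42 (edgeR adjusted p = 0.909). With 1 and 14 reads, the chromosome 15 gene had an edgeR adjusted p of 0.770, and no fold is given at this depth.

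The pools show the direction of the difference one by one. Before HH16, the GFP-negative library was higher than the GFP-positive library of its own pool in 14 of 14 pools for both genes. The share of all tested genes with that count was not computed. The ratio of GFP-negative to GFP-positive CPM ran from 1.15 to 49.4 for the chromosome 5 gene, with a median of 10.6. For the chromosome 15 gene it ran from 2.21 to 136, with a median of 16.7, leaving out 1 pool whose GFP-positive library had 0 reads. The ratio of 136 rests on only 3 GFP-positive reads, and that of 48.1 in an HH12 pool on 4. At HH6 the ratios of 6.9 and 4.62 rest on 5 and 2 GFP-positive reads. The size of these ratios is therefore poorly known. Pools of one stage could differ widely: the 3 HH14 pools gave ratios of 31.9, 2.71 and 24.6 for the chromosome 5 gene and of 26.6, 2.21 and 136 for the chromosome 15 gene. The lowest GFP-positive library of HH12 and that of HH14 each came from the pool whose GFP-negative library was also the lowest of its group. At HH16 the GFP-negative library was higher in 4 of 5 pools for the chromosome 5 gene and in 5 of 5 for the chromosome 15 gene, on a few reads.

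**Figure D2:**
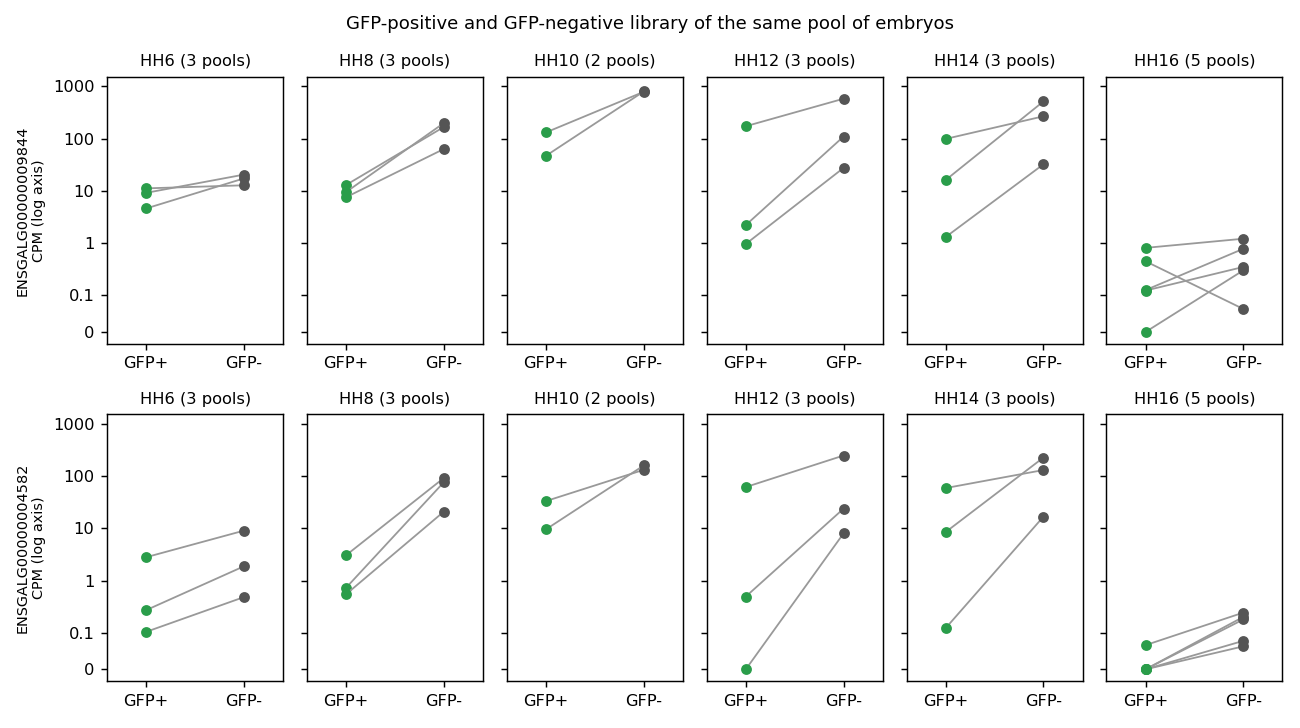
CPM on a log scale of the GFP-positive and the GFP-negative library of the 19 pools that have both fractions, by stage, with 1 row of panels per gene. Each line joins the libraries of a pool, and it runs upwards to the GFP-negative library in all 14 pools sorted before HH16 for both genes. The share of all tested genes with that count was not computed.

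Whether the size of the fraction difference itself changed between stages was tested as an interaction. From HH8 to HH10 it changed by 0.47 ± 1.63 on the log2 scale for the chromosome 5 gene (edgeR adjusted p = 0.953) and by 2.36 ± 1.97 for the chromosome 15 gene (edgeR adjusted p = 0.745). From HH10 to HH12 it changed by 1.84 ± 1.53 and 1.35 ± 1.77 (edgeR adjusted p = 1 for both). Neither gene passed, and the standard errors leave room for changes of several fold. edgeR called 0% of all tested genes in these interactions, with 1134 and 447 genes at an unadjusted p under 0.05, while DESeq2 called 17 and 1 and voom 0 and 0.

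The next comparisons followed each fraction from stage to stage, where only the steps from HH6 to HH8 and from HH12 to HH14 were free of the libraries used in the selection. From HH6 to HH8 the GFP-negative groups did not overlap for either gene, as for 5.17% of all tested genes in the rising direction. The fitted log2 change was 3.07 ± 1.25 for the chromosome 5 gene (edgeR adjusted p = 1) and 4.29 ± 1.6 for the chromosome 15 gene (edgeR adjusted p = 0.942), and neither passed in a comparison that called 0.0572% of all tested genes. With all 50 libraries the changes were 1.57 and 2.66, and the left-out GFP-negative libraries, described last, would make the groups overlap for both genes. With sequencing number as a term the chromosome 15 gene passed, with a log2 change of 4.54 (edgeR adjusted p = 0.0306), among 0.184% of all tested genes called higher. In GFP-positive cells the change over this step was 0.27 ± 1.19 and 0.48 ± 1.56 (edgeR adjusted p = 1 for both), the groups overlapped, and edgeR called 0.0191% of all tested genes.

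From HH12 to HH14 the GFP-negative change was 0.37 ± 1.07 for the chromosome 5 gene and 0.64 ± 1.23 for the chromosome 15 gene, and the GFP-positive change was -0.92 ± 1.10 and -0.12 ± 1.25 (edgeR adjusted p = 1 for all). The groups overlapped in each of these. edgeR called 0% of all tested genes over this step in either fraction, with 480 genes at an unadjusted p under 0.05 in GFP-positive and 253 in GFP-negative cells, where DESeq2 called 8 and 0 and voom 0 and 0. A direction between these stages could not be read from the libraries, since leaving out GFP-negative HH12 replicate 3 gave 1.64 and 2.39, and leaving out GFP-negative HH14 replicate 1 gave -0.489 and -0.112.

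The steps that touch HH10 or HH16 belong to the selection and are given as a description. From HH8 to HH10 the fitted GFP-negative log2 change was 2.39 for the chromosome 5 gene and 1.19 for the chromosome 15 gene, and the GFP-positive change was 2.85 and 3.55. From HH10 to HH12 it was -1.83 and -0.85 in GFP-negative cells and 0.01 and 0.50 in GFP-positive cells. From HH10 to HH16, the contrast of the selection, it was -10.47 and -9.90 in GFP-negative cells, where 3.12% of all tested genes were called lower, and -7.78 for the chromosome 5 gene in GFP-positive cells, where 4% were. By fitted group level, most of this difference lay in the last step. The higher HH14 libraries were of sequencing numbers 9235 and 9236, though, and no kept GFP-negative HH10 library was of either number. Within sequencing number 9846 both genes had fallen before the last step too, and in GFP-positive cells the chromosome 5 gene fell mostly before HH14. In GFP-positive cells the chromosome 5 gene was at 46.9 CPM at HH10, 1.31 at HH14 and at most 0.450 at HH16. In GFP-negative cells it was at 657 and 798 CPM at HH10, 124 at HH12, 32.3 at HH14 and at most 0.351 at HH16. GFP-positive libraries of 9235 were at 131, 114, 16.1 and 0.812 CPM at HH10, HH12, HH14 and HH16. Those of 9236 went the other way, at 39.1, 173 and 98.7 CPM at HH10, HH12 and HH14. The chromosome 15 gene was at 8.91, 61.3 and 58.7 CPM in the same libraries of 9236. In 9846 the chromosome 15 gene was at 9.51 CPM at HH10 and 0.123 at HH14, on 3 reads, in GFP-positive cells. In GFP-negative cells of 9846 it was at 140 and 159 CPM at HH10, 38.8 at HH12, 16.7 at HH14 and at most 0.0701 at HH16. From HH14 to HH16 the fitted log2 change was -9.01 ± 1.35 for the chromosome 5 gene and -9.69 ± 1.66 for the chromosome 15 gene in GFP-negative cells, and -6.87 ± 1.32 for the chromosome 5 gene in GFP-positive cells. No fold is given for the chromosome 15 gene in GFP-positive cells, which rests on 1 read at HH16. The HH14 and HH16 libraries did not overlap in either fraction for either gene, as for 6.14% of all tested genes in the falling direction in GFP-negative cells and 4.84% in GFP-positive cells.

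These falls were among the steepest in the table, as the selection implies. Of 9463 genes averaging 10 CPM or more in GFP-negative HH14 cells, the chromosome 15 gene had the third and the chromosome 5 gene the fifth largest fall from HH14 to HH16 in GFP-negative cells, where the median log2 change of these genes was -0.03. In GFP-positive cells the chromosome 5 gene had the sixth largest of 9055.

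The wide spread at HH12 and HH14 is set out here by sequencing number. At HH14 each fraction had a single library of each number, so any spread there would differ by number. For the chromosome 5 gene at HH12, the GFP-positive libraries of numbers 9235 and 9236 were at 114 and 173 CPM and those of 10406 at 2.22 and 0.965 CPM, and the GFP-negative library of 9236 was at 580 CPM against 110 and 27.6 CPM in 10406 and 124 CPM in 9846. At HH14 the GFP-negative libraries of 9235 and 9236 were at 515 and 267 CPM and that of 9846 at 32.3 CPM, and the GFP-positive libraries were at 16.1, 98.7 and 1.31 CPM in the same order. At HH10 the GFP-positive libraries of 9235, 9236 and 9846 were at 131, 39.1 and 46.9 CPM, and the kept GFP-negative libraries, none of them of 9235 or 9236, were at 786 CPM in 9279 and at 657 and 798 CPM in 9846. Descriptions of 9279 can also hold a code found in those of 9235 or 9236, so 9279 may not be separate from these numbers. Each number holds at most 2 libraries of a group, so number and pool of embryos cannot be told apart, and the part of either in the spread was not tested.

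The levels of the 2 genes moved together among libraries of the same group, which the selection did not use. Over the 32 libraries of the 10 groups in which both genes averaged at least 1 CPM, the log2 deviations from the group mean had a Pearson r of 0.921 (permutation p = 5e-05, two-sided) and a Spearman rho of 0.848 (permutation p = 0.00012). These p-values treat libraries as independent, although the set holds both fractions of most pools, whose deviations over all genes were correlated in most pairs, so they may be too small. Without GFP-positive HH12 replicates 2 and 4, the libraries farthest from the median of the chromosome 5 gene, r was 0.886 (permutation p = 0.00012). In the 23 libraries of groups averaging at least 10 CPM of both, r was 0.990 and rho 0.984 (permutation p = 1e-05 for both, the smallest these permutations can give).

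The relation was also seen within each sequencing number with 6 or more of these libraries. The deviations were still taken from group means over all numbers, so differences between numbers remain in them. The exact permutations moved libraries across groups and treated both fractions of a pool as independent, so these p-values may be too small. Pearson r was 0.946 and Spearman rho 0.976 over the 8 libraries of 9235 (exact permutation p = 0.000273 and 0.000397, adjusted over the 3 numbers 0.000819 and 0.00119). They were 0.844 and 0.817 over the 9 libraries of 9236 (exact permutation p = 0.00494 and 0.0108, unchanged by the adjustment). Over the 6 libraries of 9846 they were 0.981 and 1.0 (exact permutation p = 0.00139 and 0.00278, adjusted 0.00209 and 0.00417). The other numbers held 4 or fewer. Single libraries could still go against it: GFP-negative HH6 replicate 3 was the lowest of its group for the chromosome 5 gene and the highest for the chromosome 15 gene.

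**Figure D3:**
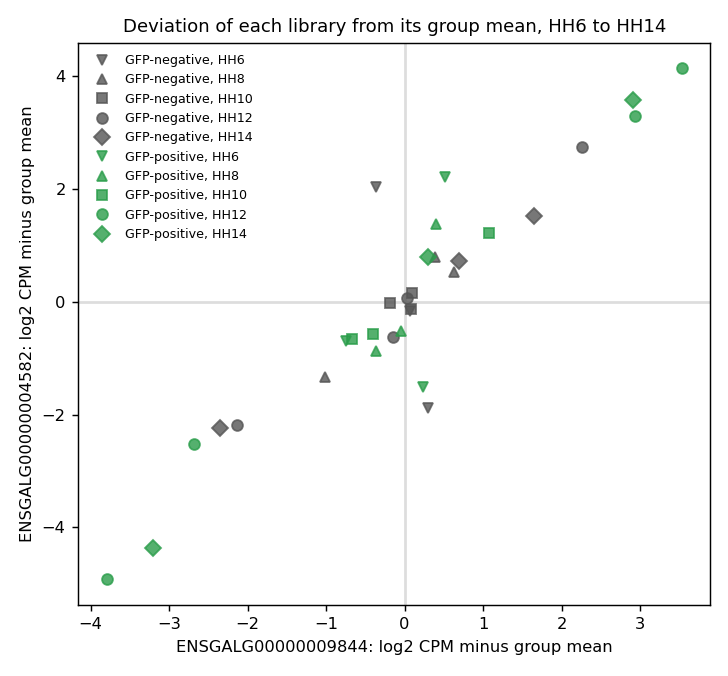
Deviation of each library from its group mean on the log2 CPM scale, chromosome 5 gene on the x axis and chromosome 15 gene on the y axis, for the 32 libraries of 10 groups. Each point is a library, and the points follow a rising line (Pearson r 0.921).

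In the kept libraries the balance between the genes was not the same at every stage. Per kilobase of exon and on the log2 scale, the ratio of the chromosome 5 gene to the chromosome 15 gene was computed. Only kept libraries with at least 10 reads of both were used. The ratio is given as a description because it was chosen after the values were seen. In GFP-negative cells it was 0.23, -0.51 and 0.01 in HH8 replicates 1 to 3 and 1.20, 0.85 and 0.95 in HH10 replicates 2 to 4. It was 0.83, 0.41, -0.14 and 0.29 in HH12 replicates 1, 2, 3 and 5 and -0.19, -0.34 and -0.43 in HH14 replicates 1 to 3. Of these kept libraries, those of HH10 were all above those of the other 3 stages, and each HH14 library was below every HH10 and HH12 library. Left-out GFP-negative HH10 replicate 1 broke this pattern, with 9171 reads of the chromosome 5 gene and 3550 of the chromosome 15 gene. Kept HH8 replicate 3, with a log2 ratio of 0.01, had 3391 and 1299 reads. Kept HH10 replicate 2 had 6059 and 1011. Left-out HH8 replicate 4, with 419 and 94 reads, leaned more to the chromosome 5 gene than the kept HH8 libraries.

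From HH10 to HH14 the GFP-positive libraries had the same order of stages. Their log2 ratio was 0.61, 0.75 and 0.92 in HH10 replicates 1, 2 and 4, 0.37 and 0.11 in HH12 replicates 3 and 4, and -0.45 and -0.63 in HH14 replicates 1 and 2. At the earlier stages few libraries had enough reads, and the ratio was 0.62 in 1 GFP-positive HH6 library, 0.71 and 2.33 in 2 GFP-positive HH8 libraries and 1.83 and -0.87 in 2 GFP-negative HH6 libraries. GFP-positive HH14 replicate 3 had too few reads for this ratio and went the other way, with 32 reads of the chromosome 5 gene and 3 of the chromosome 15 gene. GFP-positive HH12 replicates 1 and 2 were left out for the same reason, with 18 and 4 reads and with 11 and 0 reads. GFP-negative HH14 replicates 1 and 3, at 515 and 32.3 CPM of the chromosome 5 gene, had ratios of -0.19 and -0.43, both below every HH10 ratio.

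**Figure D4:**
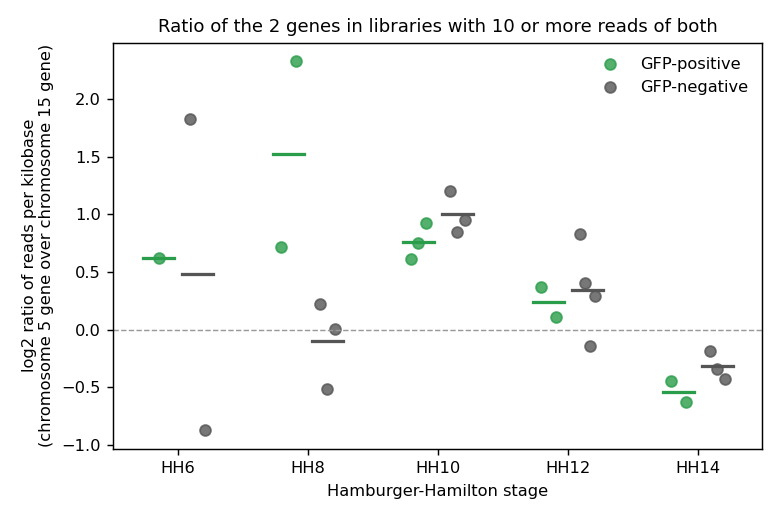
Log2 ratio of the chromosome 5 gene to the chromosome 15 gene per kilobase of exon, by stage and fraction, in kept libraries with at least 10 reads of both. Each point is a library and each bar a mean. The HH10 points lie between 0.61 and 1.20 and the HH14 points between -0.63 and -0.19.

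The genes most like each of these over the 42 libraries were ranked by Pearson r of log2 CPM among 10541 genes that reached 10 CPM in a group mean. The ranking is a description over libraries that share pools and stages. These libraries include those used in the selection, which took the genes because they fell together. A high r and a high rank of the pair with each other are therefore partly built in by the selection, and how far was not tested. The chromosome 15 gene was the most like the chromosome 5 gene, with r = 0.953, and the chromosome 5 gene was the second among those most like the chromosome 15 gene. Above r = 0.9 there were 10 genes for the chromosome 5 gene and 14 for the chromosome 15 gene.

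ENSGALG00000000302 on chromosome 26 (807502 to 813890, + strand) followed the chromosome 5 gene with r = 0.948. Its mean was 56.3 CPM at HH6, 293 at HH8, 342 at HH10, 129 at HH12, 164 at HH14 and 1.66 at HH16 in GFP-negative cells, so it stood higher before HH10 relative to its peak. In GFP-positive cells it averaged 7.65, 7.87, 33.8, 34.5, 19.7 and 0.695 CPM over the same stages. ENSGALG00000041327 on chromosome 2 (114973276 to 115009947, + strand) was the closest to the chromosome 15 gene, with r = 0.962. Its GFP-negative means were 5.94, 39.6, 47.9, 22.3, 28.7 and 0.0342 CPM over the same stages. The files give no name for either.

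The neighbours on the chromosomes had smaller changes. None of the 8 genes taken, 2 on each side of each gene, overlaps the gene beside it, and the nearest lies 8917 bases from the chromosome 5 gene and 2012 bases from the chromosome 15 gene. The 6 neighbours with enough reads to be tested had fitted GFP-negative log2 changes from -1.09 to 0.43 from HH14 to HH16. The genes themselves had changes of -9.01 and -9.69. At GFP-negative HH14, 2 of the neighbours of the chromosome 5 gene averaged only 1.04 and 0.162 CPM, so they had little room to fall.

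**Figure D5:**
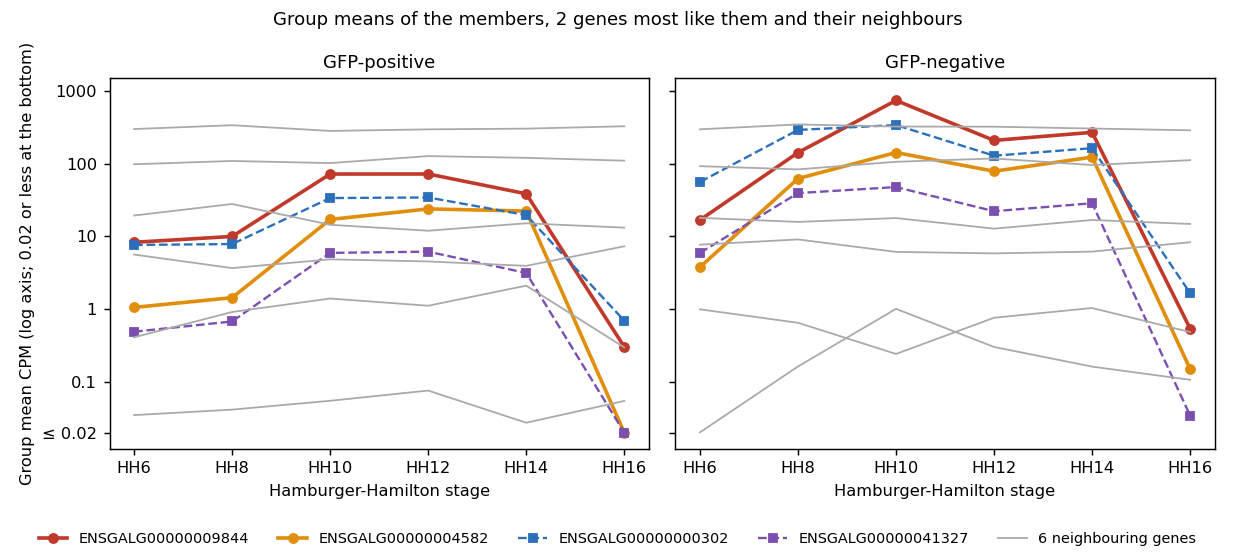
Group means in CPM on a log scale, by stage, for the 2 genes, the like genes ENSGALG00000000302 and ENSGALG00000041327, and the 6 tested neighbours in grey. The like genes end at 1.66 and 0.0342 CPM at HH16 in GFP-negative cells, and no neighbour drops as steeply.

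The 8 libraries that the authors left out of the filtered table carry further values, computed with all 50 libraries scaled together. These libraries entered only the comparisons given as made with all 50 libraries. GFP-negative HH10 replicate 1 held the highest level of both genes in any library, 1447 CPM for the chromosome 5 gene and 560 CPM for the chromosome 15 gene. GFP-negative HH12 replicate 4 was at 372 and 159 CPM, GFP-negative HH8 replicate 4 at 18.6 and 4.18 CPM and GFP-negative HH6 replicate 4 at 97.4 and 18.9 CPM. The left-out GFP-positive libraries were at 16.3 and 13.5 CPM at HH6, 8.33 and 0 CPM at HH8, 2.64 and 0.259 CPM at HH10 and 5.04 and 2.49 CPM at HH12. The HH6 library of these had 512123 reads in all. The left-out HH10 libraries thus extended the range of their groups for both genes, upwards in GFP-negative and downwards in GFP-positive cells.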

How the data were processed

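Polyadenylated RNA was measured by stranded sequencing. The deposited values are whole-number counts of reads per gene, made with featureCounts 1.6.2 with strand option 2 and the Ensembl release 99 annotation of GRCg6a, per the file headers. Reads were trimmed with cutadapt 2.10 and aligned with HISAT2 2.1.0, per the submitters' processing notes. Reads shared by near-identical genes are therefore missing from these counts.

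The main fit used the 42 kept libraries, with 11128 to 14725 genes of 10 or more reads each. Replicates differed beyond sampling noise in all groups, with a chi-square of at least 7.845 per degree of freedom between any pair. Beyond the pool names, nothing in the labels shows that replicates came from separate embryos, and p-values then cover only the spread between libraries, which may be technical. After filterByExpr by group, 15737 genes were kept and 8619 removed. Counts were scaled with TMM, and the test was edgeR's quasi-likelihood F test (edgeR 4.0.16) in R 4.3.3, with all 12 groups in one fit, robust dispersion (common dispersion 0.2189) and Benjamini-Hochberg adjustment over all tested genes at a threshold of 0.05. The procedure was tested on simulated data without pool or sequencing number effects. The outcome is not given, and it does not bear on the spread at HH12 and HH14. Standard errors are the log2 value divided by the root of F. DESeq2 1.42.0 and voom of limma 3.58.1 were alternatives.

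The pool name inferred from the titles pairs the libraries taken as both fractions of a sort. In 19 pairs the deviations from the group means correlated with r from 0.00717 to 0.664, over 0.1 in 16 pairs. The HH10 pairs were at 0.00717 and 0.0921, so their pairing was not seen in these deviations. The block is printed where it changes a call. The correlation used 100000 permutations of libraries within groups.

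The genes and comparisons were chosen with earlier results of these data known. Steps that include HH10 or HH16 within a fraction are described without a test. The like genes named are the 2 with the highest r for each gene, which include the pair itself. No sequence of either gene is printed, and gene symbols were not used here because the reference table of 25635 genes pairs 0 of them with Ensembl identifiers.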

Additional observations from a re-analysis of the deposited data

Results flagged for a closer look

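Dixon's criterion was applied to the CPM of the 8 combinations of gene and group with 4 or 5 libraries, and it picked out 2. A group with a single value above 0 is always picked out, so this count is not set against a chance rate. The chromosome 15 gene ENSGALG00000004582 stood at 246 CPM in GFP-negative HH12 replicate 3, far above the 7.99 to 38.8 CPM of the other 3 libraries of that group. The same library held 580 CPM of the chromosome 5 gene, also the highest of its group. In GFP-positive HH16 cells the chromosome 15 gene was at 0.0580 CPM in replicate 2 and at 0 in the other 4 libraries, which is a single read.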

How the results depend on the processing

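Over 24 results and their alternatives, 367 of 410 values kept their direction and their side of the threshold. Another 20 passed where the shared fit did not, and 23 changed sign. No call could be lost, since none of the 24 results passed in the shared fit. Values below are log2 differences or changes, for the chromosome 5 gene and then the chromosome 15 gene. With the pool as a replicate block the fraction differences passed at HH8 (-3.72 and -5.57), HH12 (-3.74 and -3.71) and HH14 (-3.68 and -3.87), and the block changed no other call. It turned the HH10 to HH12 change of that difference to -0.41 and -0.70. With sequencing number as a term, added after the data were seen, the fraction differences passed at HH8 (-3.77 and -5.39), HH10 (-4.95 and -4.98) and HH12 (-3.53 and -3.56), the GFP-negative HH6 to HH8 change of the chromosome 15 gene passed at 4.54, the GFP-negative HH12 to HH14 change turned to -1.80 and -1.21, and the HH8 to HH10 change of the difference turned to -1.18 for the chromosome 5 gene. With the compared groups alone, HH8 (-3.81 and -5.39) and HH10 (-3.36 and -3.05) passed. DESeq2 passed HH8 (-3.81 and -5.43), and voom passed HH10 for the chromosome 5 gene (-3.57). In every comparison where a gene passed, the setting also called more of all tested genes than the shared fit did. Counting both directions, the shared fit called 377 genes at HH8, 175 at HH10 and 331 at HH12, of 15737. Sequencing number as a term called 815 at HH8 and 684 at HH12, of 15737. The compared groups alone called 750 of 13759 at HH8 and 211 of 13615 at HH10. DESeq2 called 705 at HH8 and voom 338 at HH10, of 15737. A pass under these settings is therefore less rare among all tested genes. With all 50 libraries the GFP-negative HH6 to HH8 change was 1.57 and 2.66, the GFP-positive HH6 to HH8 change turned to -0.055 and -1.09, the GFP-positive HH12 to HH14 change of the chromosome 15 gene to 0.15, and the HH8 to HH10 change of the difference to -0.56 for the chromosome 5 gene. Without the HH12 libraries of number 10406, also added later, the GFP-negative HH12 to HH14 change turned to -0.38 and -0.21. The cause of these shifts was not tested. 

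Leaving out 1 library at a time, the chromosome 5 gene ran from -0.489 to 1.64 for the GFP-negative HH12 to HH14 change, from -0.0182 to 0.541 for the GFP-positive HH6 to HH8 change, from -0.288 to 0.781 for the HH8 to HH10 change of the difference, from -2.39 to -0.255 for the HH12 difference and from -4.96 to -1.96 for the HH14 difference. The chromosome 15 gene ran from -0.112 to 2.39 for the GFP-negative HH12 to HH14 change, from -2.54 to 0.886 for the GFP-positive one, from -0.700 to 2.92 for the GFP-positive HH6 to HH8 change, from -2.72 to 0.0387 for the HH12 difference, from -4.87 to -1.72 for the HH14 difference and from -4.05 to -0.166 for the HH6 difference. The HH16 fit with the compared groups alone gave no value, since neither gene passed its filter. With 3 to 5 libraries a group and a wide spread at HH12 and HH14, the precision of the unpaired values is low.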
